A study of Mus musculus with 8 samples.

Results

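The 8 genes H2-K1, H2-D1, B2m, Tap1, Tap2, Tapbp, Nlrc5 and Erap1 build, load or switch on MHC class I molecules. They were taken by name from the 55487 gene identifiers of the RNA count table, a rule that uses no measured value. Their RNA was followed over thymic epithelial cell (TEC) classes, fibroblasts, endothelium and mural cells (the contractile cells around vessels) in CITE-seq, a droplet method that reads RNA and antibody tags from the same cells. Stroma came from C57BL/6 mice of 1 week or 16 weeks of age, and both ages were treated alike. Enzymatically dispersed thymi of an age were pooled, depleted of CD45+ cells, stained with tagged antibodies and sorted as CD45-Ter119- cells enriched for EpCAM1+ cells. The sorted tube of each age was loaded on 2 wells, so the libraries called replicate 1 and replicate 2 are technical and each age is 1 pool of animals.

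MHC class I molecules show peptides from inside a cell to CD8+ T cells. A heavy chain (H2-K1 or H2-D1 in C57BL/6) pairs with the light chain B2m in the endoplasmic reticulum. Peptides made by the proteasome are pumped there by the paired transporter subunits TAP1 and TAP2, trimmed by the aminopeptidase ERAP1, and loaded with the help of tapasin, the product of Tapbp. NLRC5 is a transactivator of class I genes, and interferons raise the transcription of much of the pathway. In the thymic cortex, cortical TEC (cTEC) use class I for the positive selection of CD8+ T cells, and in the medulla, medullary TEC (mTEC) show tissue-restricted self peptides that delete self-reactive T cells. Intertypical TEC carry features of both compartments, and tuft-like mTEC resemble the chemosensory tuft cells of other epithelia.

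Of the 8 genes, 6 have an entry in the RefSeq promoter table for GRCm38.p6, and Tap2 and Nlrc5 are named only. The 250 bases before the RefSeq start are printed for the heavy chains, B2m and Tap1, because the levels of the first 3 went closely together in what follows and those of Tap1 did so less. Tapbp, which is not printed, also went closely with the heavy chains. Sequences run 5′ to 3′ on the strand of the gene. Capitals mark the letters of 4 motifs on either strand: AANNGAAA, the core bound by interferon regulatory factors, GGGATTCCC, the core of the enhancer A site known for NF-kappa B, TGACG, the core of the X2 box, and ATTGG, the Y box. No capitals overlap. The windows are chr17:34000348-34000597, minus strand, for H2-K1, chr17:35262844-35263093, plus strand, for H2-D1, chr2:122147437-122147686, plus strand, for B2m and chr17:34187306-34187555, plus strand, for Tap1.
H2-K1: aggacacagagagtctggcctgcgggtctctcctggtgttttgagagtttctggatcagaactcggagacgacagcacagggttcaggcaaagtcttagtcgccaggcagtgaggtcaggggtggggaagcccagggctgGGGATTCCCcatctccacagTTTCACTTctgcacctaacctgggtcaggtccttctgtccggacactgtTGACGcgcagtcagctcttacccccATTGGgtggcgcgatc
H2-D1: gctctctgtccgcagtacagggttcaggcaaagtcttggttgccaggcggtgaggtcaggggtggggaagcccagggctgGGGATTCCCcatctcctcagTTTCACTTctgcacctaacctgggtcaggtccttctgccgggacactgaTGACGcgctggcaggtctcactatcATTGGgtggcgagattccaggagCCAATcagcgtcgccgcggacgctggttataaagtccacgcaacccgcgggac
B2m: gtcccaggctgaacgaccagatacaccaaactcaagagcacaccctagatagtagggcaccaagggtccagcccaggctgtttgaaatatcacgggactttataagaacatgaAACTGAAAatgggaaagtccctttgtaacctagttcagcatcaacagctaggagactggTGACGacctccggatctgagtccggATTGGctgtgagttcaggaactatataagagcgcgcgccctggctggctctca
Tap1: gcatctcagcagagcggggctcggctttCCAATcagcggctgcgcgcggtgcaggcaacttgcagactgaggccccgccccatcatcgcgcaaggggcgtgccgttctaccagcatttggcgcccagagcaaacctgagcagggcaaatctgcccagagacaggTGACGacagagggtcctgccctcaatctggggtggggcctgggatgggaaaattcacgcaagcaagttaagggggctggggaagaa

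The enhancer A letters stood in the H2-K1 and H2-D1 windows and in 99 (0.301%) of 32851 mouse promoter windows of 250 bases, among them those of the heavy chains H2-Q6 and H2-Q7 and of Irf1, a regulator of class I genes. TGACG followed by ATTGG with 10 to 30 bases between them stood in the windows of H2-K1, H2-D1 and B2m, and in 211 (0.642%) of all windows. The interferon regulatory factor core was found in the same 3 windows and is common, in 21.3% of all windows. TGACG alone occurs in 17.8% and ATTGG in 33.8%. Tap1 has TGACG 86 bases before its start and the Y box letters 222 bases before it, in the other order and strand. The windows of Tapbp and Erap1 hold neither the enhancer A letters nor the pair. That of Tapbp, chr17:33919228-33919477, lies inside the gene as placed below, so the bases before the annotated start of the gene were not examined. These are matches of letters, not measured binding, and whether they bear on the levels was not tested.

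In GRCm38, H2-K1 (ENSMUSG00000061232, chr17:33996017-34000347, minus strand), Tapbp (ENSMUSG00000024308, chr17:33915899-33929292, plus strand), Tap1 (ENSMUSG00000037321, chr17:34187553-34197225, plus strand), Tap2 (ENSMUSG00000024339, chr17:34203527-34216321, plus strand) and H2-D1 (ENSMUSG00000073411, chr17:35262730-35267499, plus strand) lie in the major histocompatibility region. B2m (ENSMUSG00000060802) is at chr2:122147686-122153083, plus strand, Erap1 (ENSMUSG00000021583) at chr13:74639568-74693201, plus strand, and Nlrc5 (ENSMUSG00000074151) at chr8:94434356-94527272, plus strand. Several class I heavy chain genes have close copies in the genome. Of 411 windows of 90 bases in the last 500 bases of each member, 0 were also found in the transcripts of another gene. The same was not checked for the other heavy chains, and their values are uncertain for that reason.

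The 4 libraries held 9953 cells: 1846 and 1430 at 1 week with 31917364 and 25654110 UMIs (unique molecules counted), and 1939 and 4738 at 16 weeks with 21281389 and 45480790 UMIs. Cells were clustered without the 8 genes and their pathway lists, and clusters were named from cell type markers, so that a class name stands for cells like that type. The samples are labelled thymic epithelial cells, but fibroblast, endothelial and mural clusters were present beside the TEC. The 6 classes compared below held 2365 of 3276 cells (72.2%) at 1 week and 5036 of 6677 (75.4%) at 16 weeks. Cell numbers per library (1 week, then 16 weeks) were 720 and 532, then 39 and 97, for cTEC; 87 and 83, then 595 and 1427, for intertypical TEC; and 113 and 92, then 288 and 790, for mature mTEC. They were 183 and 179, then 431 and 1025, for fibroblasts; 73 and 65, then 87 and 176, for endothelium; and 124 and 114, then 24 and 57, for mural cells. Proliferating TEC (65 and 55 cells) were measured at 1 week only, and tuft-like mTEC (37 and 73) at 16 weeks only. Barcodes shared between libraries were carried by 35 cells.

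Levels are UMIs of a gene per 1000000 UMIs of the class (CPM), with exact Poisson 95% intervals in the plot of levels by library. Intervals cover counting error only, and UMIs are counted at 3′ ends, so levels are compared between classes and not between genes. H2-K1, a classical heavy chain, was at 1180 and 1127 CPM in the cTEC of the 1-week replicates 1 and 2 and at 2303 and 2668 CPM in those of 16 weeks. In intertypical TEC it was at 3007 and 3041, then 2932 and 3093 CPM, and the ages overlapped. Mature mTEC held 2645 and 2804 CPM at 1 week and 3980 and 3952 CPM at 16 weeks. H2-K1 was thus already high in intertypical TEC and mature mTEC at 1 week, when cTEC were lower in both libraries.

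Outside the epithelium, H2-K1 in fibroblasts was at 646 and 657 CPM at 1 week and at 2469 and 2753 CPM at 16 weeks, with a wide gap between the ages. Endothelium held 2049 and 1925, then 3489 and 3472 CPM. Mural cells were lowest at either age, at 459 and 509, then 797 and 884 CPM. Tuft-like mTEC of 16 weeks held 2915 and 3504 CPM, and proliferating TEC of 1 week 856 and 794 CPM. At 1 week the order of the pool values was intertypical TEC, mature mTEC, endothelium, cTEC, proliferating TEC, fibroblasts, mural cells. At 16 weeks it was mature mTEC, endothelium, tuft-like mTEC, intertypical TEC, fibroblasts, cTEC, mural cells. The counting intervals of neighbours in both orders lay apart, which says nothing of the spread between animals.

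H2-D1, the other classical heavy chain, was at 860 and 836 CPM in cTEC of 1 week and at 1616 and 1663 CPM in cTEC of 16 weeks. Intertypical TEC held 2235 and 2450, then 2169 and 2131 CPM, and mature mTEC 2237 and 2149, then 2627 and 2654 CPM. As for H2-K1, cTEC were below intertypical TEC and mature mTEC at 1 week. Fibroblasts went from 667 and 647 CPM to 2845 and 2981 CPM, endothelium from 2024 and 1935 to 3431 and 3317 CPM, and mural cells from 442 and 509 to 772 and 735 CPM. Fibroblasts of 16 weeks thereby exceeded every TEC class of that age in H2-D1. Tuft-like mTEC held 2104 and 2481 CPM and proliferating TEC 649 and 608 CPM.

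B2m, the light chain shared by all class I molecules, was at 836 and 855, then 1874 and 1803 CPM in cTEC and at 2319 and 2340, then 2903 and 2501 CPM in intertypical TEC. Mature mTEC held 2820 and 2591 CPM at 1 week and 5009 and 3928 CPM at 16 weeks, where replicate 1 was well above replicate 2. The tuft-like mTEC replicates differed in the same direction, 4102 against 2939 CPM. Fibroblasts were at 865 and 926, then 2882 and 2534 CPM, endothelium at 1409 and 1419, then 2838 and 2439 CPM, and mural cells at 542 and 633, then 945 and 801 CPM. Proliferating TEC had 504 and 395 CPM. In each of the 6 classes both 16-week libraries were above both 1-week libraries for B2m.

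**Figure D1:**
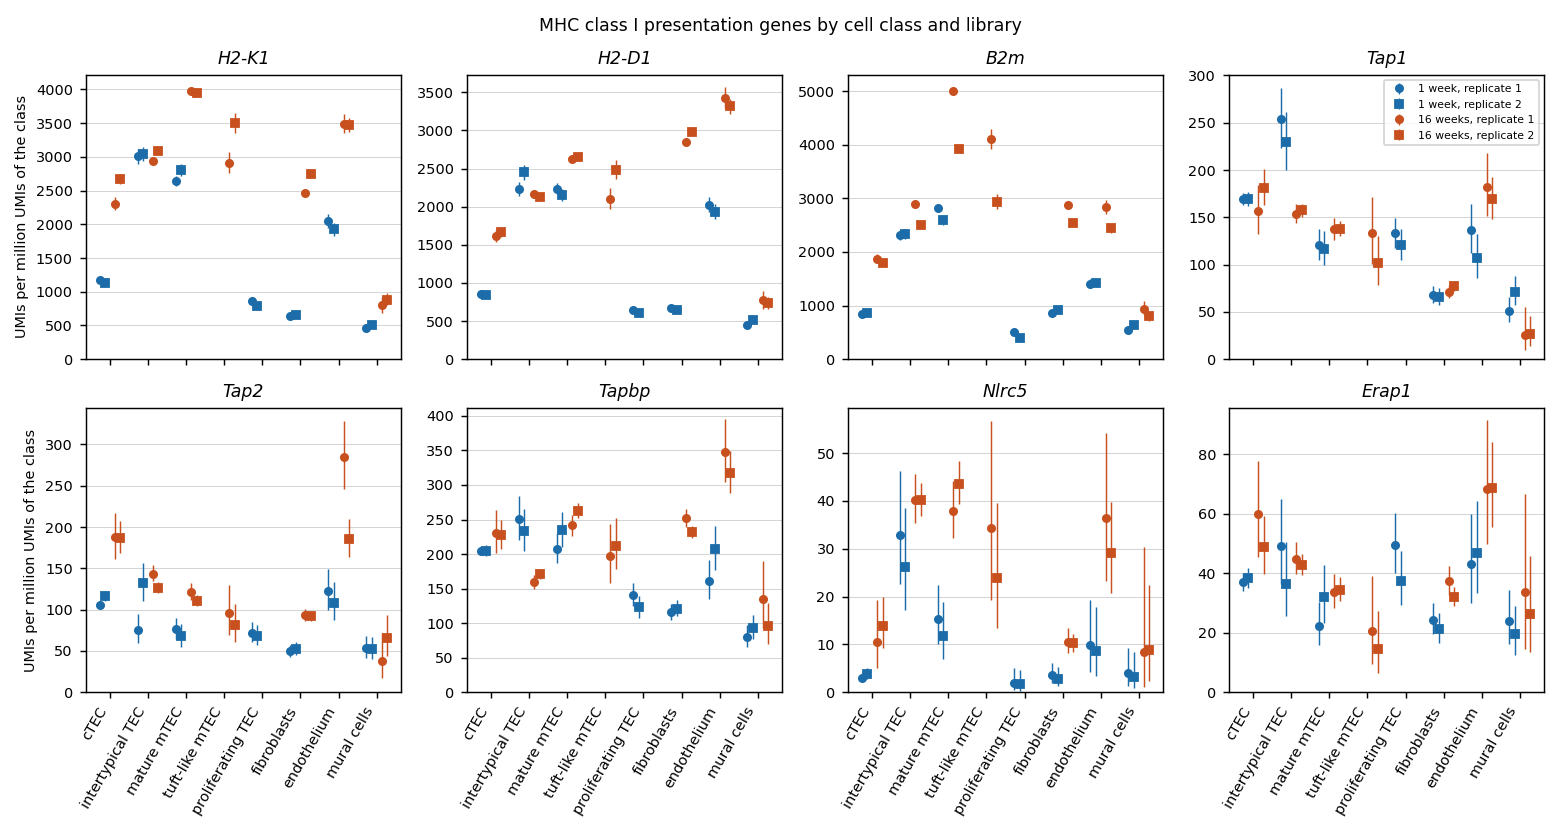
Level of each of the 8 genes (CPM, one panel per gene) by cell class, with 1-week libraries in blue, 16-week libraries in orange, circles for replicate 1, squares for replicate 2 and bars for exact Poisson 95% intervals. For H2-D1 the fibroblast points of 16 weeks (2845 and 2981 CPM) stand far above those of 1 week (667 and 647 CPM), while the intertypical TEC points of both ages lie between 2131 and 2450 CPM.

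The transporter subunits had another order. Tap1 was highest in the intertypical TEC of 1 week, at 254 and 229 CPM, and lower in those of 16 weeks, at 154 and 158 CPM. In cTEC it was at 170 CPM in both 1-week libraries and at 156 and 181 CPM at 16 weeks, so the ages overlapped. Mature mTEC held 121 and 116, then 138 and 138 CPM, fibroblasts 67.9 and 65.9, then 71.0 and 77.3 CPM, and endothelium 136 and 107, then 182 and 169 CPM. Mural cells went from 51.1 and 70.9 CPM to 25.3 and 26.3 CPM, the latter resting on 18 UMIs in all.

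Tap2 was highest in endothelium (123 and 109, then 285 and 186 CPM) and cTEC (105 and 116, then 188 and 187 CPM). The counting intervals of these classes overlapped at both ages. Intertypical TEC had 76.0 and 132, then 144 and 127 CPM, a case in which the 1-week replicates stood apart and overlapped with 16 weeks. Mature mTEC held 76.3 and 68.1, then 122 and 111 CPM, fibroblasts 49.5 and 52.7, then 93.3 and 91.9 CPM, and mural cells 53.5 and 52.9, then 38.0 and 65.7 CPM.

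Tapbp, which encodes the chaperone that holds class I molecules at the transporter, was at 205 CPM in both 1-week and at 231 and 227 CPM in the 16-week cTEC libraries. It was at 251 and 233, then 160 and 172 CPM in intertypical TEC and at 208 and 235, then 241 and 263 CPM in mature mTEC. Fibroblasts held 116 and 121, then 252 and 232 CPM, endothelium 161 and 207, then 347 and 317 CPM, and mural cells 79.9 and 92.9, then 135 and 96.3 CPM. Intertypical TEC, second from the bottom at 16 weeks, were at the top at 1 week, although there their interval overlapped with that of mature mTEC.

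Erap1, the trimming peptidase, was at 36.9 and 38.3, then 59.9 and 48.7 CPM in cTEC, at 49.0 and 36.3, then 44.8 and 42.8 CPM in intertypical TEC and at 22.2 and 32.0, then 33.8 and 34.4 CPM in mature mTEC. Endothelium had 43.0 and 46.9, then 68.3 and 68.6 CPM, the highest of the 16-week classes. Fibroblasts held 24.3 and 21.2, then 37.3 and 32.0 CPM, and mural cells 23.96 and 19.6, then 33.7 and 26.3 CPM. Proliferating TEC (49.4 and 37.5 CPM) were near intertypical TEC of the same age, and tuft-like mTEC were low (20.6 and 14.4 CPM).

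Nlrc5, the transactivator, was counted in few molecules. Intertypical TEC held 33.0 and 26.2 CPM at 1 week and 40.3 and 40.2 CPM at 16 weeks, and mature mTEC 15.4 and 11.8, then 37.8 and 43.6 CPM. The cTEC, with 2.98 and 3.84, then 10.5 and 13.8 CPM, were below both at either age. Fibroblasts had 3.63 and 2.87, then 10.5 and 10.2 CPM, endothelium 9.84 and 8.64, then 36.4 and 29.2 CPM, and mural cells 3.99 and 3.26, then 8.44 and 8.76 CPM from 9 and 6 UMIs in all. Tuft-like mTEC had 34.4 and 23.9 CPM and proliferating TEC 1.98 and 1.63 CPM. At 16 weeks the intervals of mature mTEC, intertypical TEC, endothelium and tuft-like mTEC overlapped each with the next, as did those of cTEC, fibroblasts and mural cells.

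Cells with at least 1 UMI of a gene were counted after thinning each cell to 2000 UMIs. Over 24 combinations of class and library, the lowest, median and highest share for H2-K1 was 64.8%, 97.0% and 100%, for B2m 66.7%, 90.6% and 100%, and for H2-D1 51.4%, 92.3% and 98.3%. The share was 25.8% for Tap1, 19.5% for Tap2, 32.5% for Tapbp, 7.02% for Erap1 and 3.42% for Nlrc5 at the median. Before thinning the median shares were 100% for H2-K1, 99.5% for B2m, 99.0% for H2-D1, 61.5% for Tap1, 55.3% for Tap2, 76.5% for Tapbp, 30.6% for Erap1 and 13.7% for Nlrc5. All nucleated cells make class I molecules, so no class here lacks these genes and could serve as a background of free RNA.

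How the genes differed between 16 weeks and 1 week was read within each class from the pool values. With 1 pool per age there is no test, and a difference is counted when it passes 2-fold. In fibroblasts H2-D1 was 4.47-fold higher at 16 weeks (counting interval 4.34 to 4.61), H2-K1 4.08-fold (3.96 to 4.21), Nlrc5 3.18-fold and B2m 2.96-fold. Tapbp was on the line with a log2 ratio of 1.01, and at -0.27 with classes from surface tags. In fibroblasts 5 of the 8 genes were thus past 2-fold higher and 0 lower, against 9.60% of all genes higher and 9.70% lower. The median log2 ratio of the 8 was 1.29, beside -0.01 over all genes. In all 8 the 16-week libraries lay above the 1-week libraries, although Tap1 had a ratio of only 0.17.

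In cTEC, 3 of the 8 genes were past 2-fold higher and 0 lower (9.53% and 8.58% of all genes): Nlrc5 3.80-fold, H2-K1 2.21-fold (2.15 to 2.26) and B2m 2.16-fold, with H2-D1 just short at 1.94-fold. Tap1 (log2 ratio 0.03) and Tapbp (0.16) were near even, and Tap2 was at 0.77. The median of the 8 was 0.86 on the log2 scale, beside 0.06 over all genes. The cTEC differences of H2-K1 and B2m were 0.94 and 0.91 when CPM were scaled by TMM, and that of H2-K1 was 0.99 without the 16-week replicate 2.

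Intertypical TEC were the class with the least difference: 0 of 8 genes passed 2-fold in either direction (13.8% of all genes higher, 8.21% lower), and the median log2 ratio was 0.02, beside 0.04. H2-K1 stood at 0.01, H2-D1 at -0.13, B2m at 0.18 and Erap1 at 0.03. Tap1 (-0.63), Tapbp (-0.53) and H2-D1 had both 16-week libraries below both 1-week libraries. In mature mTEC, Nlrc5 alone passed 2-fold (3.03-fold; 12.3% of all genes higher, 4.72% lower), but in all 8 genes the 16-week libraries lay above those of 1 week, with log2 ratios of 0.66 for B2m, 0.65 for Tap2, 0.54 for H2-K1 and 0.27 for H2-D1.

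Endothelium had higher 16-week libraries for all 8 genes too. Nlrc5 was past 2-fold (3.41-fold, from 15 and 64 UMIs; 6.79% of all genes higher, 7.77% lower), but its log2 ratio of 1.77 was 0.29 in cells thinned to 2000 UMIs. The log2 ratio was 0.91 for Tap2, 0.86 for B2m, 0.83 for Tapbp, 0.81 for H2-K1 and 0.76 for H2-D1. The endothelial median was 0.82, beside -0.07 over all genes. In mural cells H2-K1 stood at 0.82, H2-D1 at 0.65 and B2m at 0.53. Tap1 was past 2-fold lower there (log2 ratio -1.23, -0.98 without the 1-week replicate 2) and Nlrc5 past 2-fold higher, on 6 molecules and with an interval from -0.52 to 2.91 (7.61% of all genes higher, 15.5% lower).

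Over all 48 pairs of gene and class, 12 passed 2-fold and 11 of these were higher at 16 weeks. By gene, Nlrc5 passed in 5 of 6 classes, but in cells up to 12000 UMIs only in mature mTEC (1.02) and endothelium (1.18), with 0.33 in mural cells. H2-K1 and B2m passed in 2 classes (cTEC and fibroblasts), H2-D1 and Tapbp in 1 (fibroblasts), Tap1 in 1 (mural cells, lower) and Tap2 and Erap1 in 0. Leaving out 1 library moved 6 pairs across the line: Tapbp in fibroblasts (0.98 without 1-week replicate 1, 0.97 without 16-week replicate 1), Tap2 in endothelium (1.01 without 1-week replicate 1, 1.30 without 16-week replicate 2), Tapbp (1.02 without 1-week replicate 2) and B2m (1.00 without 16-week replicate 2) in endothelium, besides Tap1 in mural cells and H2-K1 in cTEC as given above.

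**Figure D2:**
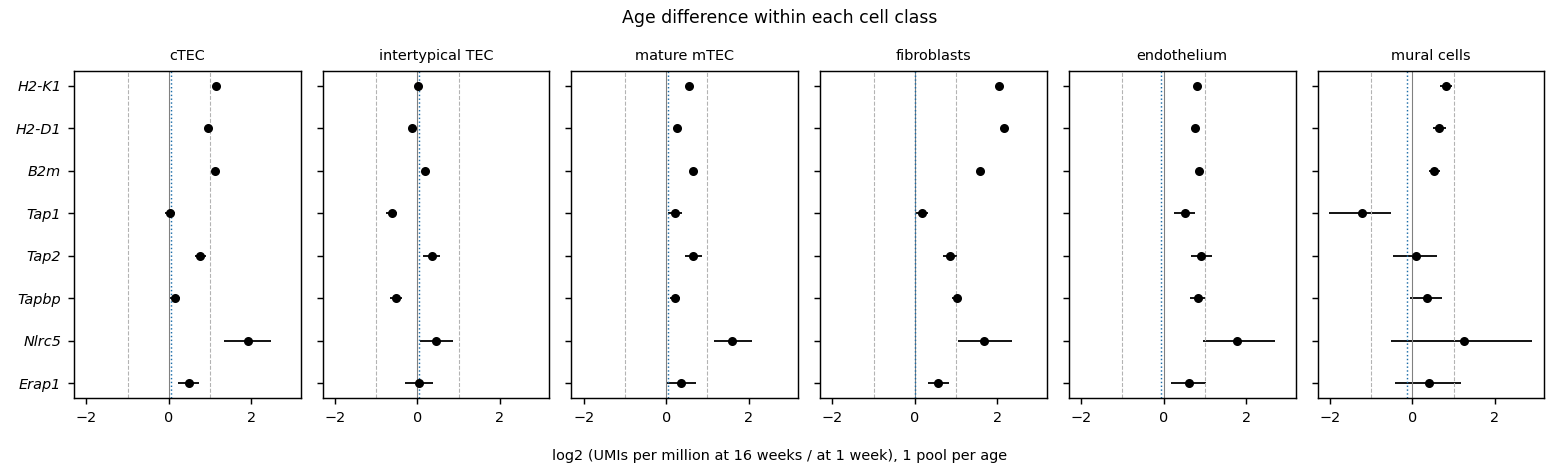
Log2 ratio of the 16-week to the 1-week pool value for the 8 genes, one panel per class, with counting intervals as bars, dashed lines at a 2-fold difference and a dotted line at the median of all genes of the class. Fibroblasts reach 2.16 for H2-D1 and 2.03 for H2-K1, and intertypical TEC stay between -0.63 for Tap1 and 0.44 for Nlrc5.

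Depth per cell differed between the ages within a class, with median UMIs in fibroblasts of 20816 and 17047 at 1 week and 13734 and 12090 at 16 weeks, and in cTEC of 13742 and 13619, then 22344 and 18029. The ratios were therefore also taken in cells over and in cells up to 12000 UMIs, a limit chosen after seeing the data. In fibroblasts the deep and shallow cells gave 2.14 and 1.63 for H2-K1, 2.21 and 2.10 for H2-D1 and 1.58 and 1.79 for B2m, all past 2-fold. Nlrc5 in fibroblasts gave 1.92 in the deep and 0.67 in the shallow cells, and Tap1 gave 0.39 and -0.69. In cTEC, H2-K1 was at 1.19 in the deep and 0.61 in the shallow cells, Nlrc5 at 2.25 and 0.66, and Tap1 at 0.16 and -0.93. The part of depth in these differences was not tested.

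Markers of other cell types moved with age too. The summed level of the 9 cTEC markers went from 10163 to 3842 CPM in intertypical TEC and from 4698 to 1742 CPM in mature mTEC. It went from 2838 to 2037 CPM in fibroblasts, from 4119 to 3219 CPM in endothelium and from 3157 to 650 CPM in mural cells. In cTEC it was 31456 and 32512 CPM. Outside cTEC such RNA may come from cTEC or be the cells' own, and these were not told apart. In fibroblasts, the class with the largest ratios, the 12 T cell markers summed to 67.3 CPM at 1 week (63.3 to 71.3 over libraries) and 39.0 CPM at 16 weeks (34.1 to 49.0). The 7 myeloid markers summed to 12.9 CPM (8.66 to 17.2; 6 of 7 detected, Itgax at 0) and 32.5 CPM (32.1 to 33.3; 7 of 7 detected) there. Fibroblast markers summed to 33958 and 22154 CPM. Red blood cell markers in cTEC summed to 185 CPM at 1 week, a value carried by 1 of the libraries (24.02 and 307 CPM), and to 22.5 CPM at 16 weeks. In the same cells myeloid markers went from 12.7 CPM (11.2 to 14.7 over libraries) to 28.5 CPM (28.1 to 29.4) and fibroblast markers from 398 to 639 CPM. In mature mTEC red blood cell markers went from 55.4 to 149 CPM. The part of these in the age differences was not tested.

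The classes of the ages were also made of different clusters. The cTEC of 1 week came from 5 clusters with H2-K1 between 933 and 1419 CPM, in one of which red blood cell genes led. Their median UMIs ran from 4251 to 46396. Those of 16 weeks came from 1 cluster at 2552 CPM, with a median of 19556 UMIs. A 16-week TEC cluster of 380 cells (median 4683.5 UMIs) stayed unnamed and was left out. Scn1a and Gm13629 were among its leading genes, as in the cTEC cluster of that age, and Scn1a also led in an intertypical cluster. Fibroblasts of 1 week held H2-K1 at 634 and 822 CPM in their 2 clusters, of 255 and 107 cells. Of the 16-week fibroblast clusters, one of 288 cells was at 1123 CPM, one of 43 cells at 1588 CPM, one of 508 cells at 2416 CPM and one of 612 cells, whose leading genes include Postn and Mmp3, at 3466 CPM. Every 16-week fibroblast cluster was thus above both 1-week clusters, and the 16-week clusters also differed among themselves. Intertypical TEC of 16 weeks fell into 5 clusters from 2121 to 4052 CPM, and Nlrc5 ranged from 10.7 to 92.3 CPM over them. Mature mTEC of 16 weeks fell into 4 clusters with H2-K1 from 3139 to 4803 CPM and B2m from 2498 to 5743 CPM, 1 of them led by Lor, a gene of cornified epithelium. Mural cells of 1 week came from 2 clusters whose leading genes include Rgs5, a gene of pericytes, and those of 16 weeks from 1 cluster led by contractile genes such as Acta2, so the mural age differences, that of Tap1 among them, compare different clusters. Tap1 was at 93.5 and 50.0 CPM in the former and at 25.9 CPM in the latter. Endothelium of 1 week came from a cluster of 138 cells whose leading genes include Gpihbp1 and Cd93. That of 16 weeks came almost wholly from another, of 261 cells, whose leading genes include Lrg1 and Ctla2a. The endothelial age differences thus compare different clusters as well.

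**Figure D3:**
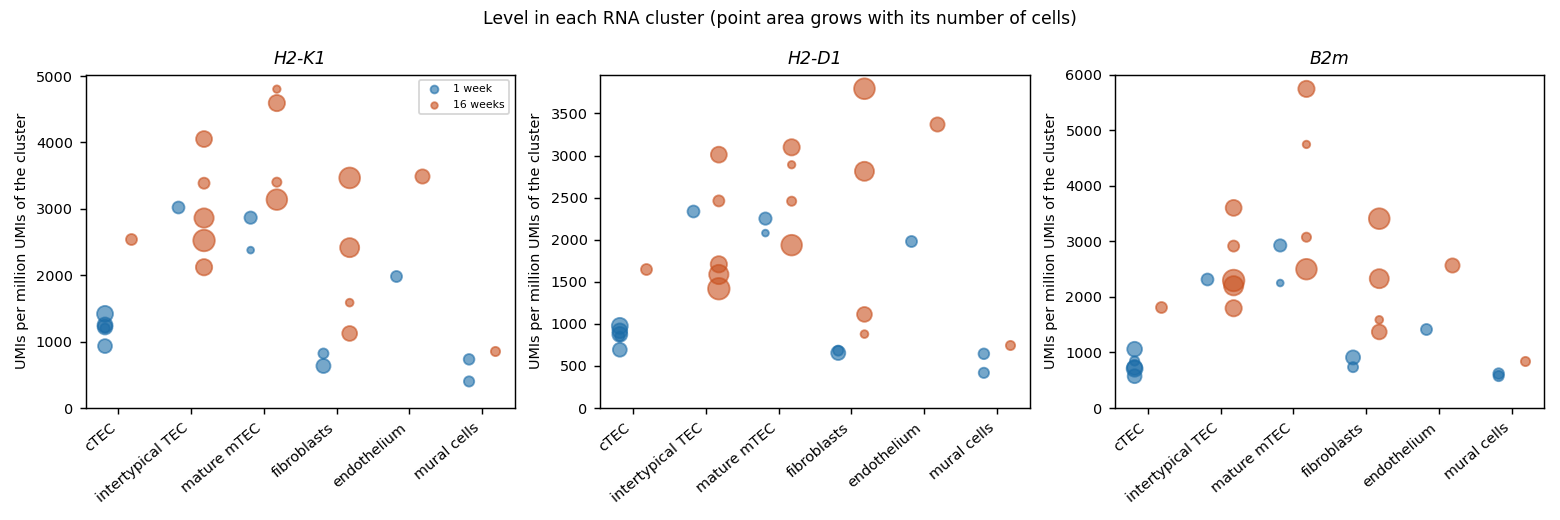
Pool level (CPM) of H2-K1, H2-D1 and B2m in each cluster of the 6 classes, with the area of a point set by its number of cells and the age by colour (1 week blue, 16 weeks orange). The 16-week fibroblast clusters spread from 1123 to 3466 CPM for H2-K1, above the 634 and 822 CPM of the 1-week clusters.

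The remaining question was how the pathway differed between classes. UMIs were summed per pool and class and fitted with edgeR's quasi-likelihood test with the pool as a block, over 18070 genes, and calls are at a Benjamini-Hochberg adjusted p of 0.05. Between mature mTEC and cTEC, 4 of the 8 genes were called, 2 higher and 2 lower (43.8% of all genes called, 22.9% higher and 20.9% lower), a share close to that of all genes. Nlrc5 was 3.19-fold higher in mature mTEC (log2 difference 1.67, SE 0.34, adjusted p = 0.0035) and B2m 2.35-fold higher (1.23, SE 0.28, adjusted p = 0.0056). Tap2 was 1.84-fold lower (-0.88, SE 0.21, adjusted p = 0.0080) and Erap1 1.73-fold lower (-0.79, SE 0.20, adjusted p = 0.010). H2-K1 (0.71), H2-D1 (0.82) and Tap1 (-0.64) were not called, each with an adjusted p of 0.13.

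The within-age ratios of mature mTEC to cTEC kept one sign at both ages for these 4 genes, at 2.04 and 1.71 on the log2 scale for Nlrc5, 1.69 and 1.23 for B2m, -0.60 and -0.71 for Tap2, and -0.50 and -0.61 for Erap1. The call of Erap1 was lost without the 1-week replicate 1 (adjusted p = 0.095) and held in 8 of 16 alternatives, that of B2m in 13, of Tap2 in 12 and of Nlrc5 in 14. Depth and mitochondrial share moved with the contrast, with median UMIs of 6509 to 8716 per library in mature mTEC and 13619 to 22344 in cTEC, and median mitochondrial shares of 5.19% to 8.12% and 2.08% to 3.59%. In cells up to 12000 UMIs 1 of the 8 genes was called. The part of depth was not tested. The scaling bears on this contrast. With DESeq2's size factors in place of TMM the median of all genes moved from -0.01 to 0.24, and the genes called went from 4134 higher and 3780 lower to 4863 higher and 2517 lower.

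Intertypical TEC differed from cTEC in 1 of the 8 genes (10.6% of all genes called, 4.43% higher and 6.15% lower). Nlrc5 was 4.76-fold higher (log2 difference 2.25, SE 0.35, adjusted p = 0.0050), and the call held in 13 of 16 alternatives. In cells over 12000 UMIs it was lost, at 1.64 (adjusted p = 0.074). Depth moved with this contrast, with median UMIs of 5428 to 6578 per library in intertypical TEC and of 13619 to 22344 in cTEC, and so did the median mitochondrial share, of 7.31% to 9.63% and 2.08% to 3.59%. At 16 weeks Nlrc5 was at 72.9 and 92.3 CPM in the intertypical clusters with medians of 3894 and 3992 UMIs, and at 10.7, 38.4 and 15.9 CPM in those with 12448, 15506 and 18718 UMIs, beside 12.7 CPM in cTEC. The part of depth in the contrast was not tested. B2m (0.87, adjusted p = 0.073), H2-D1 (0.82, adjusted p = 0.24) and H2-K1 (0.72, adjusted p = 0.24) were not called. For these 3 the ages differed: the within-age log2 ratio of H2-K1 was 1.39 at 1 week and 0.25 at 16 weeks, that of H2-D1 1.46 and 0.38, and that of B2m 1.46 and 0.53. Without the 16-week replicate 2, B2m was called (adjusted p = 0.039) and the genes called fell from 1912 to 1107. Under size factors the median of all genes moved from 0.01 to 0.12, and 801 genes higher and 1111 lower became 939 and 779.

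Between mature mTEC and intertypical TEC 0 of the 8 genes were called by edgeR (25.2% of all genes, 15.2% higher and 9.98% lower; 1 had an unadjusted p under 0.05) and 0 by DESeq2's test, the nearest being Erap1 at -0.57 (adjusted p = 0.064). B2m differed by 0.36 and Tap1 by -0.67. Nlrc5 was lower in mature mTEC at 1 week (within-age log2 ratio -1.11) and even at 16 weeks (0.05), and Tapbp went from -0.14 to 0.61.

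Endothelium was higher than fibroblasts in 3 of the 8 genes and lower in 0 (16.8% of all genes called, 7.51% higher and 9.33% lower). Tap2 differed by 1.09 on the log2 scale (adjusted p = 0.0059), Nlrc5 by 1.44 (adjusted p = 0.020) and Erap1 by 0.87 (adjusted p = 0.014), with within-age ratios alike at both ages (1.18 and 1.24 for Tap2, 0.98 and 1.02 for Erap1). H2-K1 (0.75, adjusted p = 0.21) and B2m (0.12) were not called, and their within-age ratios shrank with age, from 1.61 to 0.39 for H2-K1 and from 0.66 to -0.04 for B2m. Erap1 lost its call without the 16-week replicate 2 (adjusted p = 0.059) and was called in 12 of 15 alternatives, as was Nlrc5. Tap1 (0.93, adjusted p = 0.080) gained a call without the 1-week replicate 2 (adjusted p = 0.039). Median UMIs per library were 5813 to 7350 in endothelium and 12090 to 20816 in fibroblasts, and median mitochondrial shares 2.99% to 4.37% and 1.76% to 2.41%. In cells over 12000 UMIs 1 of the 8 genes was called. The part of depth was not tested.

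Against the mean of cTEC, intertypical TEC and mature mTEC, endothelium was higher in Erap1 (0.58, adjusted p = 0.025) and Tap2 (0.52, adjusted p = 0.047), 2 of the 8 genes (27.5% of all genes called, 15.0% higher and 12.4% lower). Both calls depend on which libraries are included. Tap2 was called in 4 of 15 alternatives and lost its call without the 1-week replicate 1 (adjusted p = 0.15), the 16-week replicate 1 (0.12) or the 16-week replicate 2 (0.060), and Erap1 was called in 9 of 15 and lost its call without the 1-week replicate 2 (0.058) or the 16-week replicate 2 (0.10).

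Mural cells were lower than fibroblasts in 2 of the 8 genes (10.1% of all genes called, 4.22% higher and 5.84% lower). H2-D1 differed by -1.52 (SE 0.42, adjusted p = 0.046) and B2m by -1.30 (SE 0.28, adjusted p = 0.015). H2-K1, at -1.28, was not called (adjusted p = 0.053). The gap was wider at 16 weeks, where the mural cluster was another one than at 1 week, with a within-age ratio for H2-D1 of -0.47 at 1 week and -1.97 at 16 weeks, and for B2m of -0.61 and -1.64. H2-D1 lost its call without the 1-week replicate 1 (adjusted p = 0.063) and was called in 9 of 15 alternatives, B2m in 12. H2-K1 gained a call without the 1-week replicate 2 (0.045) or the 16-week replicate 2 (0.039). Median UMIs per library were 7176.5 to 9505 in mural cells and 12090 to 20816 in fibroblasts, and median mitochondrial shares 3.80% to 4.33% and 1.76% to 2.41%. In cells up to 12000 UMIs 0 of the 8 genes were called, and 0 in cells over 12000 UMIs, which held too few mural cells of 16 weeks. The part of depth was not tested.

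**Figure D4:**
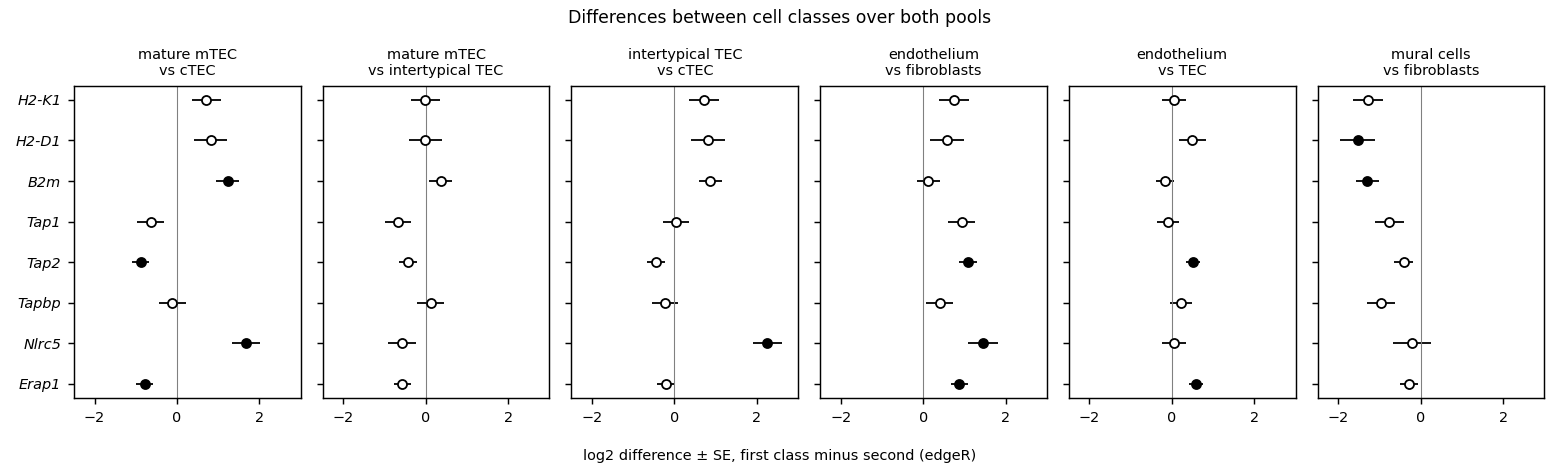
Log2 difference of the 8 genes in each of the 6 class contrasts (one panel each), with SE as bars and filled points for an adjusted p of at most 0.05. Mature mTEC against cTEC has called genes in both directions, from 1.67 for Nlrc5 to -0.88 for Tap2, and mature mTEC against intertypical TEC has none.

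The genes around the 8 in the pathway were counted in lists of fixed membership, and a list's count is to be read against the share of all genes called in the same contrast. Those shares were 22.9% higher and 20.9% lower for mature mTEC against cTEC, 15.2% and 9.98% against intertypical TEC, 4.43% and 6.15% for intertypical TEC against cTEC, 7.51% and 9.33% for endothelium against fibroblasts, 15.0% and 12.4% against TEC, and 4.22% and 5.84% for mural cells against fibroblasts. Between mature mTEC and cTEC, 2 of 5 genes of the immunoproteasome and its PA28 cap were higher and 2 lower. The cap gene Psme1 was higher (log2 difference 2.29, adjusted p = 4.8e-05), and the catalytic subunits Psmb9 (-2.37, adjusted p = 0.00035) and Psmb10 (-1.69, adjusted p = 0.0012) were lower. Of the other catalytic subunits 3 of 4 were lower, led by Psmb11, the thymoproteasome subunit that marks cTEC (-5.02). Of the loading genes 2 of 5 were higher, the chaperones Calr (0.97) and Canx (0.69). Of 12 other heavy chains 4 were higher, H2-T3 (3.44), H2-Q10 (2.60), H2-Q7 (1.94) and H2-Q6 (1.54), and 2 were lower, shares near those of all genes.

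Most of the class I regulators and interferon response genes called in this contrast went against Nlrc5, and the genes of interferons and their receptors went both ways. Of 13 class I regulators 0 were higher and 5 lower in mature mTEC, among them Irf1 (-1.88), an interferon-induced activator, and Rfxap (-1.63), a subunit of the factor that binds the X box. Of 21 interferon response genes 1 was higher, Usp18 (0.72). The 12 lower ones were led by Irgm1 (-2.52), Iigp1 (-2.52), Gbp2 (-2.40) and Isg15 (-2.28), and the list had a median of -1.23. Against intertypical TEC, 17 of the 21 were lower in mature mTEC and 0 higher, led by Ifit3 (-3.47) and Isg15 (-2.99), and 2 of the 13 regulators were lower, among them Rfxap (-0.60), with 0 higher. Intertypical TEC exceeded cTEC in 5 of the 21, led by Mx1 (2.84) and Irf7 (2.31), and were lower in 0. Class II genes were higher in mature mTEC, 5 of 11 against cTEC and 7 of 11 against intertypical TEC, with 1 and 0 lower. All 6 myeloid markers tested were higher in mature mTEC than in cTEC (median 3.82) and than in intertypical TEC (median 3.28). Their sum in mature mTEC was 368 CPM at 1 week (226 to 542 over libraries, Itgax at 0) and 478 CPM at 16 weeks (413 to 509). Of the 7 tested genes of interferons and their receptors 2 were higher than in cTEC, among them Ifngr2 (1.19), and 2 lower, Il10rb (-1.09) and Ifnar2 (-0.87). Of the 4 red blood cell markers 0 differed in a call. T cell markers were lower in 6 of 12 in mature mTEC and 7 of 12 in intertypical TEC than in cTEC. The part of these cells in the contrasts was not tested.

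Outside the epithelium, endothelium exceeded fibroblasts in 5 of 21 interferon response genes and in 4 of 11 class II genes, with 0 lower in either, and in 2 of 5 genes of the immunoproteasome and its cap, Psmb9 (1.11, adjusted p = 0.028) and Psme1 (0.77, adjusted p = 0.016), with 0 lower. It was lower in 2 of 5 loading genes, Pdia3 (-0.82, adjusted p = 0.027) and Calr (-0.76, adjusted p = 0.0089), and in 1 of 12 other heavy chains, Fcgrt (-0.96, adjusted p = 0.025). Against TEC it was lower in 10 of 11 class II genes, led by the invariant chain Cd74 (-2.83), and higher in Fcgrt (2.17), the heavy chain of the neonatal Fc receptor, and H2-T24 (2.75). Mural cells were lower than fibroblasts in 3 of 12 other heavy chains, H2-T23 (-1.65), H2-Q4 (-1.32) and H2-T22 (-1.31), and in 3 of 5 loading genes, Pdia3 (-1.49), Calr (-1.37) and Canx (-0.88), with 0 higher in either list.

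With age, some of the other heavy chains went with H2-K1 and H2-D1 in fibroblasts, where the list had a median log2 ratio of 0.95. Their values are uncertain, as sequence sharing was not checked for them. Of 11 measured, 5 were past 2-fold higher at 16 weeks and 0 lower, with H2-Q6 from 41.7 to 258 CPM (log2 ratio 2.63), H2-Q7 at 2.30, H2-T23 at 2.00 and H2-M3 at 1.72. The immunoproteasome subunit Psmb8 (1.18) and the interferon gamma receptor gene Ifngr1 (1.88) were past 2-fold higher too. Irf1 went the other way, from 321 to 110 CPM (-1.55), and of 21 interferon response genes 0 were past 2-fold higher and 3 lower, Rsad2 (-2.74), Mx1 (-1.45) and Ifit3 (-1.21), with a list median of -0.28. Over all genes 9.60% were higher and 9.70% lower in fibroblasts. In cTEC, 4 of 11 other heavy chains were past 2-fold higher and 0 lower (9.53% and 8.58% of all genes), H2-Q6 (2.00), H2-Q7 (1.83), H2-T22 (1.58) and H2-T23 (1.08), with Psmb8 at 2.39, Irf1 at -1.22 and, of 21 interferon response genes, 0 past 2-fold higher and 3 lower.

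In endothelium 5 of 20 interferon response genes were past 2-fold higher at 16 weeks and 0 lower (6.79% and 7.77% of all genes), with Rsad2 at 2.46, Ifit3 at 1.83, Ifit2 at 1.79 and Ifit1 at 1.28, and of 11 other heavy chains 2 were higher, H2-T24 (2.16) and H2-T23 (1.48), and 1 lower, Cd1d1 (-1.06). Whether endothelium and fibroblasts differ in the age difference of these lists was not tested. In intertypical TEC (13.8% of all genes higher, 8.21% lower) 0 of 11 other heavy chains passed 2-fold and 5 of 21 interferon response genes were lower, with Ifit2 (-2.26) and Rsad2 (-1.89) leading, and Psmb10 (-1.37) and Irf1 (-1.38) were lower. There 8 of 10 measured T cell markers were past 2-fold lower. In mature mTEC 1 of 11 heavy chains, Mr1 (1.18), was higher and 3 of 21 interferon response genes were lower, beside 12.3% and 4.72% of all genes. In mural cells (7.61% of all genes higher, 15.5% lower) 2 of 9 heavy chains, H2-Q7 (1.63) and H2-Q6 (1.15), were higher and 1, Cd1d1 (-1.48), was lower, 1 of 20 interferon response genes was higher and 4 were lower, and Irf1 was lower (-1.97). Psmb11, itself a cTEC marker, was past 2-fold lower in the 5 classes other than cTEC, where the cTEC marker sums were lower as well.

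**Figure D5:**
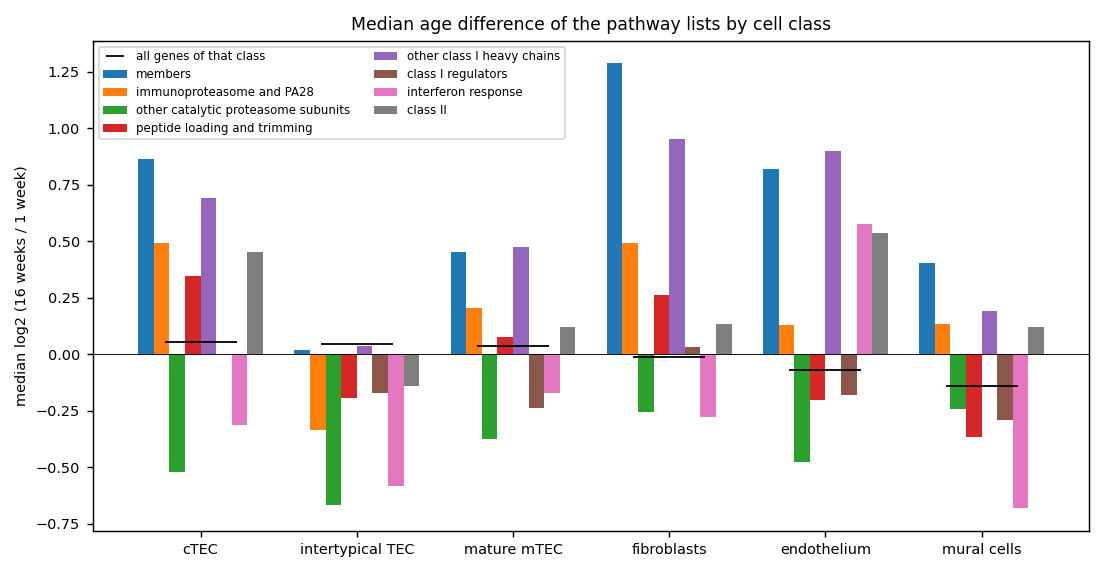
Median log2 ratio of the 16-week to the 1-week pool value over each pathway list (bars) by class, with a black line for the median of all genes of that class. Fibroblasts show the highest median of the 8 genes, 1.29, beside a median of -0.28 for the interferon response list.

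Across 28 combinations of class and library with at least 20 cells, the genes whose level was most like the mean of the 8 were found among 10250 genes with a mean of at least 10 CPM. Of the 10 closest, 5 are class I heavy chains, H2-Q6 (Pearson r 0.94), H2-Q4 (0.91), H2-T23 (0.91), H2-Q7 (0.89) and H2-Q5 (0.86). The other 5 are Cyb561 (0.88), Sp110 (0.88), Uba7 (0.87), Ly6e (0.85) and Psmb8 (0.85). Among the 8 themselves, the 28 pairs had r from 0.11 to 0.97 with a median of 0.66. The highest was H2-K1 with H2-D1 (0.97), followed by B2m with H2-K1 and with H2-D1 (0.92 each) and with Nlrc5 (0.90). The lowest was B2m with Erap1 (0.11), and Tap1 reached 0.61 with H2-K1 and 0.41 with B2m. Tapbp, whose promoter window lacks the TGACG and ATTGG pair, reached 0.87 with H2-K1 and 0.87 with H2-D1. These r describe units that share libraries, pools and depth, and have no test.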

How the data were processed

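Single-cell RNA and antibody tags of CD45-depleted thymic stroma were measured at 1 and 16 weeks of age. The authors aligned the reads with STARsolo (2.7.9a per the submitters' processing notes, mm10) with Ensembl 102 as the annotation. They dropped barcodes under 2000 UMIs and deposited counts, whole numbers of UMIs per gene and of antibody tags per cell. The labels give kit version 2 and the methods version 3, and the strand setting of the counting is not given in the sources used here. Replicates are wells of 1 sorted tube. Everything below was computed from the deposited counts.

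The top-scoring cells of each library were taken as doublets (253 cells, 2.54% of all) and left out. Cells were clustered on 2000 variable genes, 30 principal components and 10 neighbours (Python 3.11.15, scikit-learn 1.9.0, igraph 0.11.9), leaving out the 8 genes and their pathway lists. A cluster was named when at least 3 markers of a type were detected, unless its 10 leading genes held more markers of another type than of its own or it was shallow without an own marker among them. These naming limits, and the genes that kept a keratinocyte-like cluster out, were set after seeing the clusters. At 1 and 16 weeks 4.03% and 8.39% of cells were in unnamed TEC clusters, 0% and 5.11% in other unnamed clusters and 12.4% and 5.36% in shallow TEC clusters, and were not used. Tag counts were used only for the alternative classes.

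UMIs were summed per pool (both wells of an age) and class of at least 20 cells, giving 14 sums in 1 fit. Classes were compared with edgeR 4.0.16 (R 4.3.3; TMM, quasi-likelihood test, Benjamini-Hochberg threshold 0.05 over 18070 genes). The pool was a block because all classes of an age came from the same tube. Ages have 1 pool each and were compared without a test. Genes of at least 20 UMIs entered the age background, which leaves out Nlrc5 in mural cells. In counts simulated for mature mTEC against cTEC (15832 genes), 84.8% of 4-fold, 20.9% of 2-fold and 2.99% of 1.5-fold changes were recovered, with 5 false calls, so changes of 2-fold and less are often missed. With the pool as a block, p-values measure how differences between classes vary between the 2 pools, and since the pools are the ages, class differences that change with age count as error.

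All 8 genes are named. Of each pathway list every measured member was counted, and up to 4 with the largest difference among those past the threshold are named. The values of 1 listed gene that this rule would name are not reported here. The genes and lists were chosen with earlier results of these data known. DESeq2 1.42.0, size factors, no filter on low counts, other blocks, classes from tags, other clustering, doublets and shallow clusters kept, thinning and left-out libraries were tried as alternatives.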

Additional observations from a re-analysis of the deposited data

Results flagged for a closer look

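For 3 of the 8 genes both 16-week libraries lay above both 1-week libraries in some classes and below them in others. The difference between the classes was not tested in any of these cases. For H2-D1 the log2 ratio of 16 weeks to 1 week was positive in cTEC (0.96), mature mTEC (0.27), fibroblasts (2.16), endothelium (0.76) and mural cells (0.65), and negative in intertypical TEC (-0.13). For Tap1 it was positive in mature mTEC (0.22), fibroblasts (0.17) and endothelium (0.51), and negative in intertypical TEC (-0.63) and mural cells (-1.23). For Tapbp it was positive in cTEC (0.16), mature mTEC (0.22), fibroblasts (1.01) and endothelium (0.83), and negative in intertypical TEC (-0.53). In mural cells the 16-week libraries were above as well, at 0.34, but with a counting interval that includes 0 (-0.053 to 0.73). Several of these signs turn with the cells used: H2-D1 in intertypical TEC was 0.032 in cells thinned to 2000 UMIs and 0.097 in cells up to 12000 UMIs, Tap1 was -0.23 in mature mTEC (thinned) and -0.077 in endothelium and -0.69 in fibroblasts (up to 12000 UMIs), and Tapbp in cTEC was -0.32 (up to 12000 UMIs) and -0.045 (TMM-scaled CPM). Tapbp in fibroblasts turned to -0.27 with classes from surface tags. Libraries of an age are wells of 1 pool.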

How the results depend on the processing

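Of 744 class-contrast values under the alternatives, 609 kept their direction and their side of the threshold, and of 551 age values 403 moved by less than the replicate spread. With the pool block left out (no replicate block) 0 of the 8 genes were called in any contrast, and the genes called fell to 2203 (mature mTEC against intertypical TEC), 234 (intertypical TEC against cTEC), 1941 (endothelium against fibroblasts) and 876 (mural cells against fibroblasts). Summing by well instead, with the library as replicate block, which counts wells as replicates, 7, 2, 5, 5 and 5 of the 8 were called (mature mTEC against cTEC and intertypical TEC, intertypical TEC against cTEC, endothelium and mural cells against fibroblasts), with 7158, 5294, 5304 and 3909 genes in the last 4. Replicate numbers name wells and pair no animals.

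Classes from surface tags gave 0 genes and 0 members called by edgeR in the 3 TEC contrasts, with 1266, 2183 and 1336 genes at an unadjusted p under 0.05, and the tag gates mixed RNA classes (201 cells in the fibroblast gate were intertypical TEC by RNA). DESeq2's test called 2 members in intertypical TEC against cTEC. Without a filter on low counts 4 were called there, 5 in endothelium and 5 in mural cells against fibroblasts and 0 in endothelium against TEC. Pathway genes kept in the clustering gave 2 in intertypical TEC against cTEC and 1 in endothelium against TEC. Size factors gave 1 in mural cells, doublets kept gave 1 there and 0 in endothelium against TEC, and shallow clusters kept gave 1 in the latter.

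In cells thinned to 2000 UMIs 2775, 1805, 839, 1878, 2504 and 1015 genes were called over the 6 contrasts (fewer UMIs), with 1 member in endothelium against TEC. The share of cells with a UMI of a member had a median of 29.5% thinned and 72.4% not thinned. In cells up to 12000 UMIs, a limit added after seeing the data, 2203, 1701, 345, 1945, 2885 and 1029 genes were called, with 1 member in mature mTEC against cTEC, 1 in endothelium against TEC and 0 in mural cells. In cells over 12000 UMIs 746 genes (intertypical TEC against cTEC) and 683 (mural cells) were called, with 1 member in mature mTEC against intertypical TEC (0 in the main fit), 0 in intertypical TEC against cTEC, 1 in endothelium against fibroblasts, 0 against TEC and 0 in mural cells.

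Leaving out 1 library gave 6399 to 7615 genes and 3 to 4 members (mature mTEC against cTEC), 3607 to 4378 and 0 to 0 (against intertypical TEC), 1107 to 1817 and 1 to 2 (intertypical TEC against cTEC), 2595 to 2941 and 2 to 4 (endothelium against fibroblasts), 3985 to 4777 and 0 to 1 (against TEC), and 1348 to 1698 and 1 to 3 (mural cells). Pairs past 2-fold with age ranged from 11 to 13 of 48.

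Directions that turned belonged to uncalled values, except that of the age difference of Tapbp in fibroblasts. Tapbp in mature mTEC against cTEC became 0.14 (size factors, DESeq2, thinned), 0.013 (no filter), 0.0080 (tags), 0.094 (doublets kept) and 0.19 (up to 12000 UMIs), and -0.13 to 0.15 without 1 library. In mature mTEC against intertypical TEC, H2-K1 and H2-D1 became 0.11 and 0.11 (size factors, DESeq2), 0.034 and 0.033 (no filter), 0.075 and 0.045 (no block), 0.056 and 0.042 (library sums), 0.092 and 0.28 (tags), 0.10 and 0.12 (doublets kept), 0.24 and 0.25 (thinned) and 0.23 and 0.26 (up to 12000 UMIs), with -0.040 to 0.12 and -0.044 to 0.042 without 1 library, Tap2 became 0.012 (thinned) and Tapbp -0.0100 (over 12000 UMIs). With tags, Tap2 and Erap1 in intertypical TEC against cTEC became 0.071 and 0.39, and the age difference of Tapbp in fibroblasts -0.27. In endothelium against TEC, H2-K1 became -0.034 (no filter) and -0.068 (over 12000 UMIs), Nlrc5 -0.031 (no filter), -0.12 (thinned) and -0.43 (up to 12000 UMIs), and B2m 0.17 (up to 12000 UMIs), with H2-K1 at -0.011 to 0.058 and Nlrc5 at -0.093 to 0.18 without 1 library. Erap1 in mural cells against fibroblasts became 0.60 (thinned) and 0.11 (up to 12000 UMIs). The causes were not tested.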
